A study of Mus musculus with 4 samples.

Results

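Fos, Fosb, Fosl2, Jun, Junb, Jund, Egr1, Atf3, Ier2 and Klf2 are 10 transcription factor and regulator genes of the immediate-early response, out of 21887 protein-coding genes of the mouse (GRCm38). They were taken by name. For each gene, all accessible peaks were collected whose summit, the highest point of the peak, lay inside the gene or within 10 kb of either of its ends. The peaks come from ATAC-seq, where an inserted transposase releases fragments from accessible DNA for sequencing, of newborn (postnatal day 0) mouse hearts. There were 2 wild-type (WT) and 2 miR-187 libraries on the C57BL/6J background, each from 50000 cells. The miR-187 mice carry mmu-miR-187 knocked in at Rosa26 under the Tek (Tie2) promoter and enhancer, which is active in endothelial cells and also in part of the blood lineage. The labels do not give zygosity, and the study describes the mice behind its mouse accessibility panel as +/+ and KI/KI, the latter homozygous for the knock-in. The labels name heart as the tissue, whereas the study describes cells captured from digested hearts with magnetic beads against the endothelial protein CD31. The comparison addresses how raised miR-187 changes chromatin openness in cells from the heart, whichever of these inputs was used. Nothing says that the libraries came from separate animals or pools, so differences between them may be technical.

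The AP-1 transcription factors are pairs of leucine zipper proteins, a JUN protein joined to another JUN protein, a FOS protein or an ATF protein, and they bind short TGA-TCA sites in enhancers and promoters. Many of the genes that encode them are immediate-early genes, switched on within minutes of growth factor, stress or mechanical signals by factors such as SRF, the ternary complex factors and CREB, with no need for new protein synthesis. Their promoters are commonly open before the signal arrives. In endothelial cells Fos, Jun, Egr1 and Atf3 respond to disturbed flow and injury, Klf2 is the classical gene of laminar flow, and many of these genes are also known to be induced when tissue is digested into single cells.

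Promoter sequences, 250 bases before to 50 bases from the annotated start on, were held by the RefSeq table (GRCm38.p6) for 8 of the 10 genes, and those of Egr1 and Ier2 are named only. The promoters of Fos, Jun, Atf3 and Klf2 are shown because a peak covered each of them in more than 1 library. The promoter of Jund is shown because it differs from the others in base composition and no peak covered it. Each sequence is written 5′ to 3′ along its gene, in lower case, with matches to the motifs searched in capitals.
Fos, chr12:85473640-85473939, plus strand: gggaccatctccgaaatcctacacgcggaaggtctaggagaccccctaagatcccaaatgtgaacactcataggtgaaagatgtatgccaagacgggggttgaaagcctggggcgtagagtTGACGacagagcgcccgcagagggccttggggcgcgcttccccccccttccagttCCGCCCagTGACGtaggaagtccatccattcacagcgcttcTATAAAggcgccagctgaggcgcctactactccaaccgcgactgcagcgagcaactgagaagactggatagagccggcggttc
Jun, chr4:95052173-95052472, minus strand: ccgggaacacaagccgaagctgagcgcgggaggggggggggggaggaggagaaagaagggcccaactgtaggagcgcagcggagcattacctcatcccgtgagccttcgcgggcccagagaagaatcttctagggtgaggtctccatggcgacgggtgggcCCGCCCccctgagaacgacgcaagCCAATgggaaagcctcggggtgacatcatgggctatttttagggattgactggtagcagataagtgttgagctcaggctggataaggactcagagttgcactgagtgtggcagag
Atf3, chr1:191183284-191183583, minus strand: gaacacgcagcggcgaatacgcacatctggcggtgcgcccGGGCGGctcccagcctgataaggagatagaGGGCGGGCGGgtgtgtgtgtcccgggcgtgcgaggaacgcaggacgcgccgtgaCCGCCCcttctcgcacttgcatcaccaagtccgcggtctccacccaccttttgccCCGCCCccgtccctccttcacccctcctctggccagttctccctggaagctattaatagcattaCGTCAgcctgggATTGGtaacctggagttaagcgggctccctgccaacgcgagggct
Klf2, chr8:72318812-72319111, plus strand: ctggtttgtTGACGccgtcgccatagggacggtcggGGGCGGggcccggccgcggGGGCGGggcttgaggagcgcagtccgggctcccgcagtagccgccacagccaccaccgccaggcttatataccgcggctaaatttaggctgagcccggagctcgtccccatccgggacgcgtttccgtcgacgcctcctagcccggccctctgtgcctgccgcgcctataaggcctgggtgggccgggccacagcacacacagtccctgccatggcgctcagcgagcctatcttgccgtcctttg
Jund, chr8:70697489-70697788, plus strand: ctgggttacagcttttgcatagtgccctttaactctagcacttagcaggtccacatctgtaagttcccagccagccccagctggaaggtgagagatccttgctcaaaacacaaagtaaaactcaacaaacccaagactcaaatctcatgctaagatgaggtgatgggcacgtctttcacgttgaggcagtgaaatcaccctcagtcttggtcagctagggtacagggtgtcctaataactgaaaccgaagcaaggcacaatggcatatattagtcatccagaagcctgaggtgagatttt

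The motifs were searched on both strands, and a match is a description of letters, not a bound site. The CRE half-site TGACG, part of the cAMP response element bound by CREB and ATF proteins, was in 5 of the 8 promoters (Fos, Fosb, Junb, Atf3 and Klf2), against 20.8% of the 32851 promoters of the table. In Fos it began at -129 and -66 from the start, and the TATAAA box began at -33. The KLF/SP motif GGGCGG was in 6 of the 8, in all but Junb and Jund, against 35.7% of all promoters, and the Atf3 promoter held it 5 times. CCAAT was in 3 promoters (Jun, Junb and Atf3), against 37.4%, and TATAAA in 2 (Fos and Junb), against 13.6%. None of the 8 held the AP-1 motif TGANTCA (7.81% of all promoters), the whole CRE TGACGTCA, which contains the half-site (1.79%), the CArG box of SRF (1.63%), the EGR motif GCGTGGGCG (0.612%) or the ETS motif CCGGAA (14.9%). These letters are absent from this 300-base window only.

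The promoters were rich in G and C. GC content lay above the median of all promoters, 52.7%, in 7 of the 8 and reached 69.3% in Klf2 and 68.3% in Fosb. The ratio of observed to expected CpG pairs, which is high in unmethylated CpG islands, exceeded the median of 0.384 in the same 7 and was 1.03 in Fosl2, 0.889 in Klf2 and 0.867 in Atf3. The window at the annotated start of Jund was the exception in both, with a GC content of 46.7% and a ratio of 0.184, and it held none of the motifs. The summits inside Jund lay further into the gene, as given below with its other values.

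The peak lists of WT replicates 1 and 2 held 9452 and 12298 peaks, and those of miR-187 replicates 1 and 2 held 7496 and 1483. Read totals were not used here, and the genome background read density inferred from the peak values put the first 3 libraries at 1.70, 5.06 and 1.95 times the depth of miR-187 replicate 2. That library stands apart from the other 3 in list length. The main differences over the 10 genes are given with and without it. Those under other windows or list lengths are given with it included. Of 18 endothelial marker genes, 8, 13, 7 and 2 had a peak within the same window in the 4 libraries in this order. Pecam1, which encodes CD31, had 1, 1, 1 and 0 peaks, Cdh5 had 1, 2, 0 and 1, Ets1 1, 5, 3 and 0 and Fli1 2, 3, 1 and 0. Emcn and Cldn5 had none in any list, Eng and Sox18 had one in both WT lists alone, and Esam in both miR-187 lists alone. Of 18 cardiomyocyte markers, 4, 7, 4 and 0 had one, and 10 of them had a peak in at least 1 list. Tnnt2 had one in both WT lists alone, and Mybpc3 had one in miR-187 replicate 1 alone. Myl2 had 1, 0, 1 and 0 peaks, Ryr2 2, 0, 1 and 0 and Tnni1 1, 2, 2 and 0, while Myh6, Myh7, Actc1, Actn2, Ttn, Nppa, Nkx2-5 and Pln had none in any. Of 8 fibroblast markers, 4, 5, 2 and 0 had a peak, and Postn, Col1a2 and Pdgfra had one in both WT lists alone. A peak was also found at 3, 1, 1 and 0 of 6 immune markers, 1, 0, 0 and 1 of 6 smooth muscle and pericyte markers (Acta2 in miR-187 replicate 2) and 0 of 6 erythroid markers in each library. The part that cell composition plays in the values below was not tested.

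Peaks were present at most of the 10 genes in 3 of the libraries and at none in the fourth. In WT replicate 1, 7 of the 10 genes had a peak (70%, 95% Wilson interval 39.7 to 89.2), against 38.0% of all protein-coding genes. In WT replicate 2 it was 9 of 10 (90%, 59.6 to 98.2), against 47.1%, and in miR-187 replicate 1 it was 7 of 10 (70%, 39.7 to 89.2), against 33.5%. In miR-187 replicate 2 it was 0 of 10 (upper bound 27.8%), against 6.75% of all genes. The shares at the 10 genes were thus higher than those over all genes in 3 libraries and lower in miR-187 replicate 2, as a description with no test. The median window searched was 23286 bp for these genes and 37169 bp over all genes, and its part in the shares was not tested. Every one of the 10 had a peak in at least 1 list, against 58.5% of all genes. With a window of 50 kb, chosen after the data were seen, 9, 10, 9 and 2 of the 10 had a peak in the 4 libraries, against 58.9, 65.3, 53.2 and 14.4% of all genes.

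**Figure D1:**
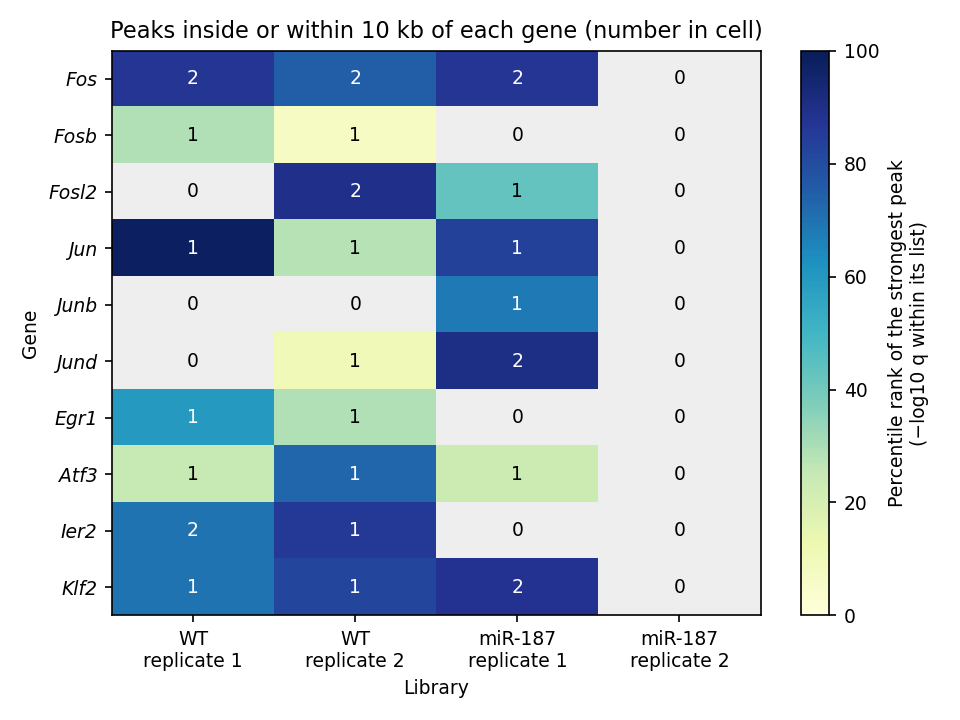
Number of peaks inside or within 10 kb of each of the 10 genes (rows) in each library (columns), with colour giving the percentile rank of the strongest peak by −log10 q within its own list and grey for no peak. The column of miR-187 replicate 2 is empty for all 10 genes, while Fos has 2 peaks in each of the other 3 libraries.

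Per library, the 10 genes held 9 peaks (WT replicate 1), 11 (WT replicate 2), 10 (miR-187 replicate 1) and 0 (miR-187 replicate 2). WT averaged 10 ± 1.41 peaks and miR-187 averaged 5 ± 7.07 (SD, n = 2 each), a difference of -5 that is smaller than the spread between the miR-187 libraries. Without miR-187 replicate 2 the difference was 0. The number of genes with a peak averaged 8 ± 1.41 for WT libraries and 3.50 ± 4.95 for miR-187 libraries (SD, n = 2 each), a difference of -4.50, which was -1 without miR-187 replicate 2. The lower mean peak number with miR-187 therefore rests on a single library. For genes with a peak, the difference of -1 lay within the WT spread, as WT replicate 1 and miR-187 replicate 1 both had 7. When every list was cut to its strongest 1483 peaks, the length of the shortest, 2, 1, 4 and 0 of the genes had a peak in the 4 libraries, and the difference turned to 0.500.

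A peak within 1 kb of a start site was present at 4 genes in WT replicate 1 (95% Wilson interval 16.8 to 68.7%), against 21.8% of all genes. It was present at 7 genes in WT replicate 2 (39.7 to 89.2%), against 31.2%, and at 5 in miR-187 replicate 1 (23.7 to 76.3%), against 20.2%. In miR-187 replicate 2 it was present at 0, against 3.16%. As with the wider window, the shares exceeded those over all genes in the 3 deeper libraries only, again with no test. WT libraries averaged 5.50 ± 2.12 genes and miR-187 libraries 2.50 ± 3.54 (SD, n = 2 each), a difference of -3 that was -0.500 without miR-187 replicate 2.

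Across the 4 lists, Fosb, Egr1 and Ier2 had a peak in both WT libraries and in neither miR-187 library. These 3 of 10 genes (30%) compare with 9.04% of all genes. Among the marker lists it was 3 of 8 for fibroblasts (37.5%), 2 of 18 for endothelium (11.1%) and 1 of 18 for cardiomyocytes (5.56%). Of the markers peaked in both WT lists it was 3 of 4 (75%), 2 of 6 (33.3%) and 1 of 2 (50%) in this order. The immune list had it at 0 of 1 such marker, and the smooth muscle and pericyte and erythroid lists had no such marker. The part of cell composition was not tested. The reverse pattern was found at 0 of the 10, against 0.169% of all genes. No other count was possible, because miR-187 replicate 2 had no peak at any of the 10. Fos, Jun, Atf3 and Klf2 had a peak in both WT libraries and in miR-187 replicate 1, which is 4 of 10 against 20.3% of all genes. Both WT lists had a peak at 7 of the 10, against 30.2%. The share of genes peaked in both WT lists was thus high for the list as a whole, and the 3 genes without one in miR-187 are 3 of those 7 (42.9%), against 29.9% of the 6616 such genes overall. The call at Fosb, Egr1 and Ier2 could not end when a library was left out, because this only loosens the rule. It was the same without miR-187 replicate 2 and without either WT library. Without miR-187 replicate 1 it extended to Fos, Jun, Atf3 and Klf2, giving all 7 genes peaked in both WT lists. It ended at all 3 genes when lists were cut to equal length or to a −log10 q of at least 5, and when only summits inside the gene counted (Klf2 alone then had the pattern). A 1 kb window left Ier2 alone and a 50 kb window left Fosb alone.

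The number of peaks at each gene was compared with an exact permutation test over the 6 ways to assign the 4 libraries to groups, which cannot give a 2-sided p under 0.333. Peak numbers did not overlap between the groups at 3 of the 10 genes, Fosb, Egr1 and Ier2, which reached this exact permutation p of 0.333 (n = 2 per group), and at the other 7 genes it was 1. Over all protein-coding genes, peak numbers did not overlap and were lower with miR-187 at 11.6%, and higher at 0.174%. No gene can therefore be called by this test, whatever its pattern. The values of each gene follow by protein family, where fold is the summit height over the local background of the peak caller, rank is the percentile of −log10 q within the library's own list, and reads are the inferred number of reads piled up at the summit.

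Fos (chr12:85473890-85477274, plus strand), the founding FOS protein and partner of JUN, had 2 peaks in each of WT replicate 1, WT replicate 2 and miR-187 replicate 1. At the start site itself, WT replicate 2 had a summit 14 bp before the start (chr12:85473533-85473932, fold 3.15, 20 reads, rank 16.2), and miR-187 replicate 1 had one 184 bp after it (chr12:85473879-85474215, fold 5.24, 21 reads, rank 87.1). WT replicate 1 listed no peak at the start. The start was therefore open by peak call in 1 library of each group, and the 2 peaks shared 54 bp.

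A second site lay in the outer part of the window upstream of Fos. WT replicate 1 had a summit 8771 bp before the start (chr12:85464990-85465283, fold 6.18, rank 77.3), and miR-187 replicate 1 had one at 8692 bp (chr12:85465088-85465301, fold 5.43, rank 44.2). The third lay beyond the 3′ end, where WT replicate 1 had a summit 8866 bp past the gene (chr12:85486042-85486255, fold 5.67, 16 reads, rank 86.8) and WT replicate 2 one at 8724 bp (chr12:85485895-85486312, fold 4.55, 24 reads, rank 75.1). The downstream site belonged to both WT lists but to no miR-187 list, with 214 bp shared. The upstream site crossed the groups. The peak number at Fos differed by -1 between group means and by 0 without miR-187 replicate 2.

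Fosb (chr7:19302696-19310118, minus strand), a close relative of Fos with a known stable splice form in neurons, had 1 peak in each WT library and none in either miR-187 library. The 2 WT peaks were not the same site. WT replicate 1 had a summit 6573 bp before the start (chr7:19316497-19316954, fold 4.59, 9 reads, rank 28.9). WT replicate 2 had one 6723 bp past the 3′ end (chr7:19295818-19296050, fold 3.82, 11 reads, rank 6.97), inside the neighbouring gene Rtn2, which encodes a protein of the endoplasmic reticulum membrane. Both peaks ranked low in their lists, and neither had a counterpart in the other WT library. With peaks given only to their nearest gene, Fosb no longer counted as present in both WT lists.

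Fosl2 (chr5:32136472-32157840, plus strand), which encodes FRA2, a FOS protein without the strong activation domain of FOS, had 0, 2, 1 and 0 peaks. The site just before its start was found in both groups. WT replicate 2 had a summit 644 bp upstream (chr5:32135713-32136124, fold 4.76, 31 reads, rank 89.3) and miR-187 replicate 1 had one 598 bp upstream (chr5:32135735-32135980, fold 4.35, 15 reads, rank 42.9). The 2 peaks overlapped by 246 bp. WT replicate 2 also had a summit 2707 bp upstream (chr5:32133640-32133901, fold 4.06, 25 reads, rank 67.6), which no other list held. The deepest library was thus the only WT library with a peak at Fosl2.

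Jun (chr4:95049036-95052222, minus strand), the core JUN protein of AP-1, had 1 peak in each of the 3 deeper libraries. WT replicate 2 and miR-187 replicate 1 shared a broad peak over the start, chr4:95052100-95052883 (fold 3.10, 24 reads, rank 27.8) and chr4:95052137-95052823 (fold 4.65, 23 reads, rank 83.3), with 687 bp in common. Both covered all 300 bases of the promoter shown above. WT replicate 1 instead had a narrower peak with its summit 1143 bp before the start (chr4:95053252-95053545, fold 5.65, 26 reads, rank 97.7), the highest ranked of all 30 peaks at the 10 genes. The start of Jun was therefore shared across the groups and not within WT.

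Junb (chr8:84976909-84978748, minus strand), a JUN protein that often restrains JUN, had no peak in either WT library. Its single peak was in miR-187 replicate 1 (chr8:84969519-84969718, fold 5.60, 13 reads, rank 68.1), with a summit 7283 bp from the gene and inside Prdx2, a peroxide-reducing enzyme that is abundant in red cells. No list held a peak at the start of Junb. The peak number differed by 0.500 between group means, in the direction opposite to Fos. This difference was 1 without miR-187 replicate 2 and 0 without miR-187 replicate 1. It was also 0 with peaks given only to their nearest gene and with a 1 kb or 3 kb window.

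Jund (chr8:70697739-70700616, plus strand), the JUN protein that is made constantly in most cells, had 0, 1, 2 and 0 peaks. WT replicate 2 had a summit 840 bp into the gene (chr8:70698420-70698746, fold 2.92, 21 reads, rank 10.5). In miR-187 replicate 1 the summit was 1287 bp in (chr8:70698946-70699177, fold 6.02, 19 reads, rank 90.4), and a weak second peak lay 9945 bp upstream, closest to Lsm4, an RNA-processing factor (chr8:70687655-70687854, fold 4.43, 6 reads, rank 7.14). The peaks inside the gene did not touch each other. Jund was 1 of 2 genes, with Junb, whose mean peak number was higher with miR-187, by 0.500. Without miR-187 replicate 1 the sign at Jund turned to -0.500. With peaks given only to their nearest gene, or with a 1 kb or 3 kb window, the difference was 0 at both genes.

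Atf3 (chr1:191170296-191183333, minus strand), a stress-induced ATF protein that pairs with JUN and represses many targets, was open at its start in the 3 deeper libraries. The summits lay 182 bp into the gene in WT replicate 1 (chr1:191183078-191183277, fold 3.96, 12 reads, rank 24.8), 167 bp in WT replicate 2 (chr1:191182990-191183616, fold 4.08, 27 reads, rank 72.9) and 28 bp in miR-187 replicate 1 (chr1:191183078-191183355, fold 4.28, 12 reads, rank 23.3). All 3 peaks shared 200 bp. The peak of WT replicate 2, the deepest library, was the widest and covered all 300 promoter bases, against 72 in miR-187 replicate 1 and 0 in WT replicate 1. WT replicate 1 and miR-187 replicate 1, at 1.70 and 1.95 times the depth of the shallowest library, had the same 12 reads at this start.

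Klf2 (chr8:72319062-72321654, plus strand), a zinc finger factor that keeps endothelium quiescent under flow, was the other gene open at its start in both WT libraries and in miR-187 replicate 1. The summits were 127 bp into the gene in WT replicate 1 (chr8:72319079-72319340, fold 5.19, 13 reads, rank 69.6), 79 bp in WT replicate 2 (chr8:72318969-72319399, fold 4.09, 32 reads, rank 82.1) and 54 bp before it in miR-187 replicate 1 (chr8:72318847-72319175, fold 6.34, 16 reads, rank 87.9). The 3 peaks shared 97 bp. They covered 33, 143 and 265 of the 300 promoter bases in this order. miR-187 replicate 1 had a further peak 3053 bp past the gene (chr8:72324621-72324838, fold 5.22, 13 reads, rank 58.8), so both groups averaged 1 peak. Without miR-187 replicate 2 the difference was 1, and it was -1 without miR-187 replicate 1 or with summits inside the gene only.

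Egr1 (chr18:34861207-34864956), a zinc finger immediate-early factor, had 1 peak in each WT library and none in either miR-187 library. Both lay just outside the gene, with the summit 747 bp from its boundary in WT replicate 1 (chr18:34860000-34860633, fold 4.49, 15 reads, rank 59.6) and 1196 bp in WT replicate 2 (chr18:34859932-34860543, fold 3.28, 22 reads, rank 28.9). The peaks had 544 bp in common, with summits 449 bp apart. Just beyond the 10 kb window, WT replicate 1 and miR-187 replicate 1 had a shared site, with summits 10917 and 10950 bp from the gene and ranks of 70.5 and 86.2. The nearest gene to it was Reep2, at 2827 and 2794 bp. The reference table gave no strand for Egr1 or Ier2, so distances are from the nearer gene boundary.

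Ier2 (chr8:84661331-84662852), a short immediate-early gene whose nuclear protein acts in transcription, had 2 peaks in WT replicate 1, 1 in WT replicate 2 and none in either miR-187 library. At its end with the higher coordinate, the summit was 130 bp from the boundary in WT replicate 1 (chr8:84662555-84662903, fold 3.93, 13 reads, rank 28.5) and 27 bp in WT replicate 2 (chr8:84662758-84662962, fold 4.37, 32 reads, rank 86.0), and these peaks shared 146 bp. WT replicate 1 had another, 4251 bp from the gene (chr8:84656787-84657141, fold 5.22, 13 reads, rank 69.9). The difference between group means was -1.50 peaks, and it ran from -2 to -1 when 1 library was left out. Ier2 was also the only one of the 3 WT-only genes that kept this pattern with a 1 kb window.

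**Figure D2:**
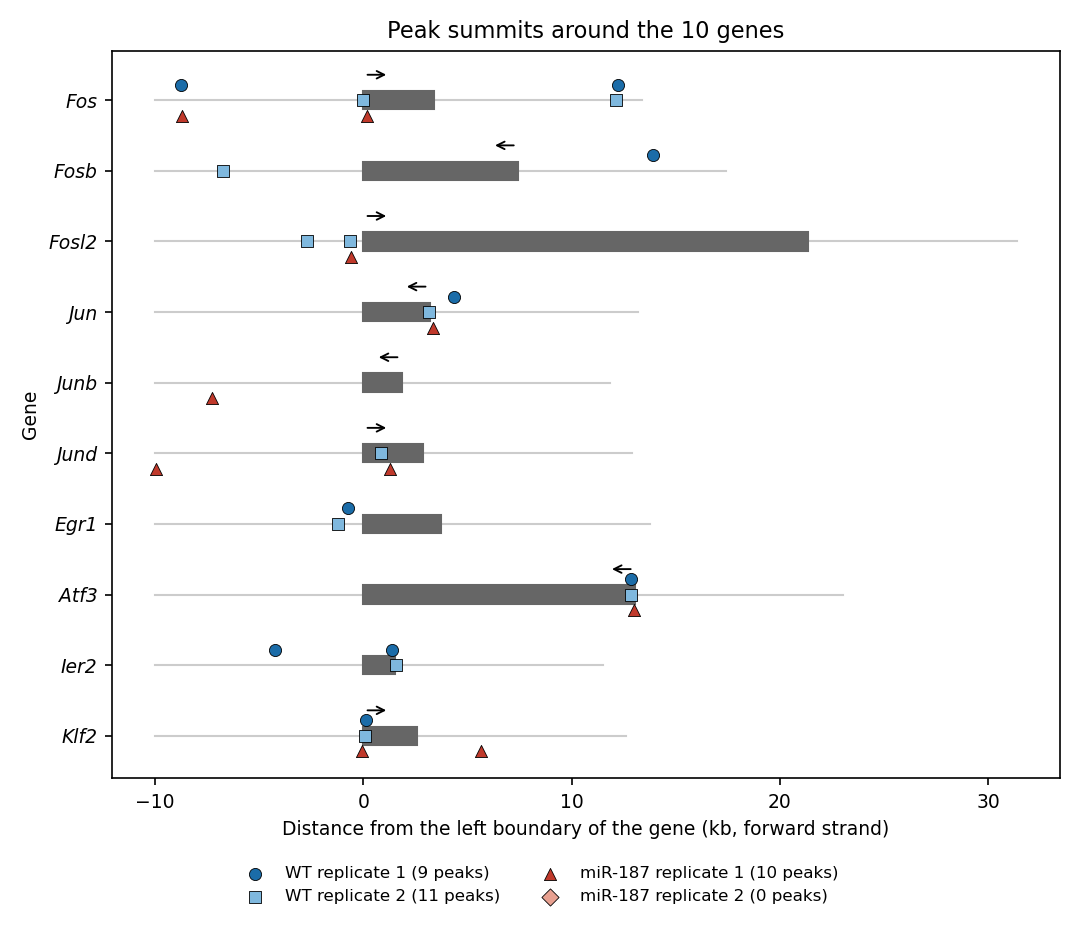
Position of each peak summit relative to the left boundary of its gene, in kb along the forward strand, with the gene as a dark bar, the 10 kb flanks as a grey line, WT libraries as blue circles and squares and miR-187 replicate 1 as red triangles (miR-187 replicate 2 has no peak). Arrows give the direction of transcription where the reference table holds it, which is for 8 genes, and the summits of Atf3 and Klf2 from 3 libraries stack at the gene start.

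Of the 30 peaks, 16 had a summit within 1 kb of a start site, 10 had it inside the gene and 20 outside. Summits near the start made up 4 of 9 (44.4%) in WT replicate 1, 7 of 11 (63.6%) in WT replicate 2 and 5 of 10 (50%) in miR-187 replicate 1. Over all pairs of a gene and a peak, the shares were 45.1, 48.4 and 49.6%. The placement of peaks at the 10 genes was therefore close to that over all genes in WT replicate 1 and miR-187 replicate 1, and higher in WT replicate 2, where the share rests on 11 peaks.

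Merged by at least 1 bp of overlap, the 30 peaks formed 19 separate regions. Of these, 9 were in more than 1 list and 10 in a single list. Those confined to the WT lists and present in both were 3, the downstream site of Fos, the site at Egr1 and the end of Ier2, which compares with 8.62% of the 20919 merged regions of the whole lists. Those with the reverse pattern were 0, against 0.158%, which was fixed in advance because miR-187 replicate 2 had no peak at these genes. Leaving out 1 library, which can only raise these counts, moved the first to between 3 and 6 (6 without either WT library, 5 without miR-187 replicate 1). The second moved to 4 without miR-187 replicate 2. The starts of Atf3 and Klf2 were in both WT lists and miR-187 replicate 1. WT replicate 2 and miR-187 replicate 1 alone shared 3, the starts of Fos and Jun and the upstream site of Fosl2, and WT replicate 1 and miR-187 replicate 1 alone shared 1. In all, 5 regions were shared by the WT libraries and 6 by miR-187 replicate 1 with at least 1 of them. At Fosb the WT libraries had peaks at different places, whereas at Egr1 and Ier2 they overlapped. With summits within 250 bp as the rule in place of overlap, the site at Egr1 no longer counted as shared and 2 WT-only regions were left.

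The strength of these peaks was described by their rank within their own list, because fold and q depend on depth. The median rank of the strongest peak per gene was 69.6 in WT replicate 1, 72.9 in WT replicate 2 and 83.3 in miR-187 replicate 1. Over all genes with a peak it was 61.3, 64.2 and 58.9. Ranks of the 30 peaks ran from 24.8 to 97.7, from 6.97 to 89.3 and from 7.14 to 90.4 in the 3 libraries, so the genes held both strong and marginal peaks in each. Fos had the highest sum of ranks of its strongest peaks, and the genes with the most similar ranks across the 4 libraries were Mylk4 and Wrnip1 (Euclidean distance 3.00, sharing the same peaks) and Smim40 (4.77).

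Reads at the summit were compared after scaling each to the depth of miR-187 replicate 2. The 30 peaks had a median of 13 reads in WT replicate 1, 24 in WT replicate 2 and 14 in miR-187 replicate 1 before scaling. Scaled, they ran from 2.17 to 15.3 reads with a median of 6.32. In the list of miR-187 replicate 2 itself, the lowest called summit had 4 reads and the median called summit had 6. The 30 sites are those that passed the peak call in another library, and the scaling leaves out local background, so these values do not show whether such a site could be called in miR-187 replicate 2.

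**Figure D3:**
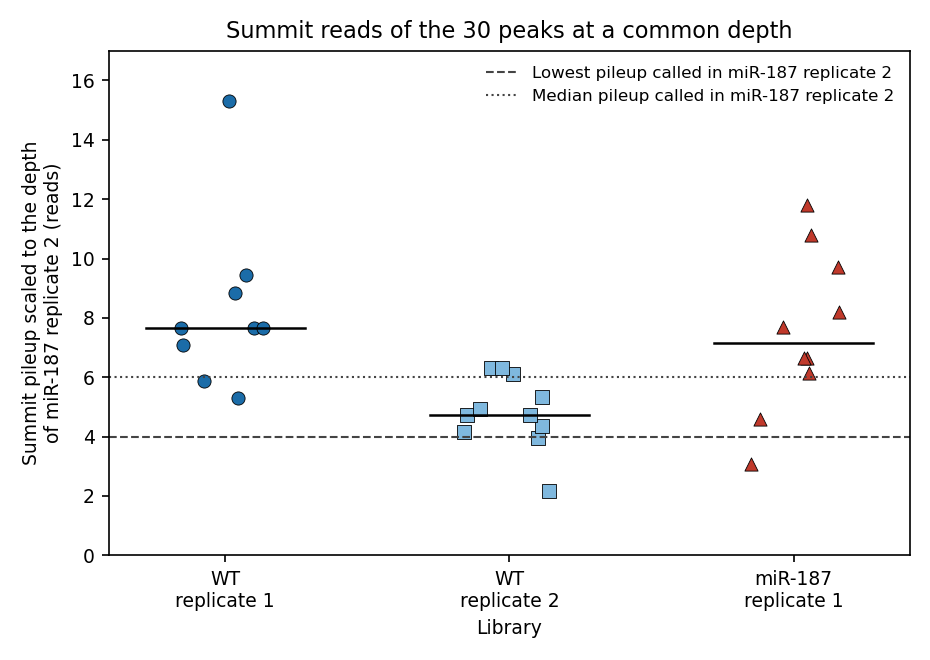
Reads at the summit of each of the 30 peaks at the 10 genes (points), scaled to the inferred depth of miR-187 replicate 2, by library, with the median of each library as a bar. The dashed line is the lowest summit called in miR-187 replicate 2 (4 reads) and the dotted line its median (6 reads). Scaled values run from 2.17 to 15.3 reads, at sites that were called in the library shown.

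Other genes of the same network were described by the same window. Of 8 other AP-1 family genes (Fosl1, Batf, Batf2, Batf3, Jdp2, Atf2, Atf4 and Atf7), 4, 7, 4 and 1 had a peak in WT replicate 1, WT replicate 2, miR-187 replicate 1 and miR-187 replicate 2. Batf3 and Jdp2, a dendritic cell factor and a JUN-binding repressor, had a peak in each WT list and none with miR-187. Of 28 other immediate-early genes, 21, 25, 14 and 3 had a peak. In this list 6 had the WT-only pattern and 0 the reverse, among them Dusp6, an ERK phosphatase, Egr2 and Egr3, relatives of Egr1, Maff, a small MAF protein, and Gadd45b, a stress sensor. Rhob, a small GTPase of endosomes, had a peak in all 4 lists at ranks of 96.3, 98.7, 81.1 and 95.3, and so did Nr4a1, an orphan nuclear receptor, with 3, 3, 1 and 1 peaks and ranks of 65.1, 98.5, 85.9 and 4.32. The library without a peak at any of the 10 genes therefore held a high-ranked peak at Rhob and a marginal one at Nr4a1.

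Upstream, of 23 genes of the kinases and factors that switch on immediate-early genes, 18, 20, 15 and 1 had a peak. The WT-only pattern was at 4 of them, Map2k2 and Rps6ka1 of the ERK cascade and Elk3 and Elk4, ternary complex partners of SRF. Mapk8, which encodes the JUN kinase JNK1, had a peak in all 4 lists. Of 12 other flow-responsive endothelial genes, 5, 9, 5 and 1 had a peak, Thbd (ranks 97.0 and 83.1 in WT), the thrombin receptor of endothelium, and Nfe2l2, the factor NRF2, had the WT-only pattern, and the mechanosensitive channel gene Piezo1 had 3, 5, 3 and 1 peaks. Klf4 is counted in both the immediate-early and the flow list. In each of the 4 lists the reverse pattern was at 0 genes. Only the 1, 3, 1 and 1 genes of these lists with a peak in miR-187 replicate 2 could have had it. The WT-only pattern was at 25, 21.4, 17.4 and 16.7% of the AP-1, immediate-early, upstream and flow lists, against the 9.04% of all genes. Of their members with a peak in each WT list it was at 2 of 4 (50%), 6 of 21 (28.6%), 4 of 17 (23.5%) and 2 of 5 (40%), against 29.9% overall.

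**Figure D4:**
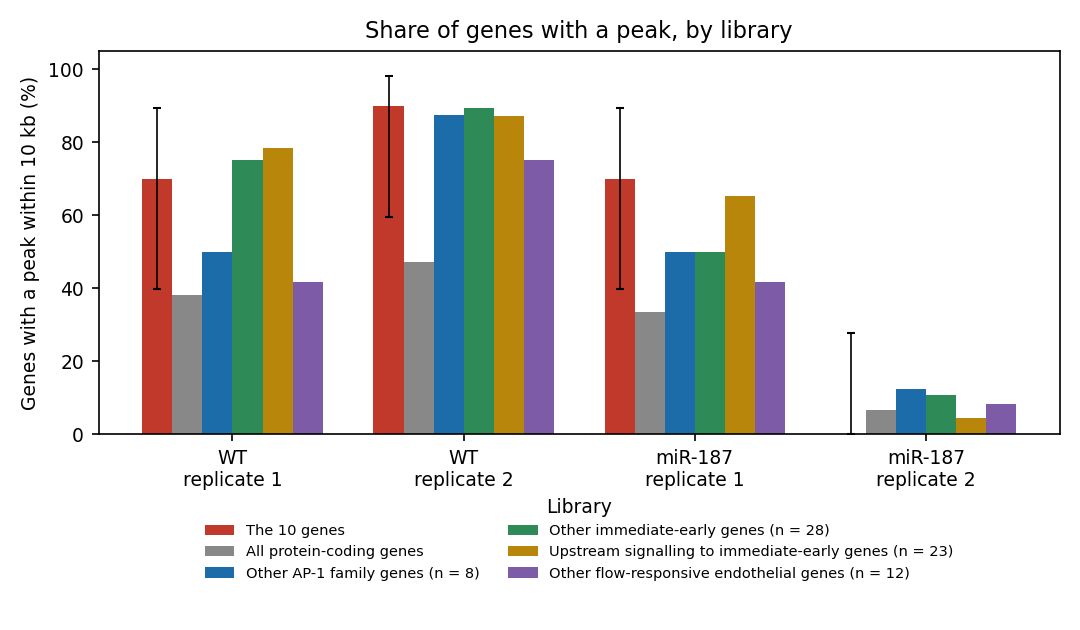
Share of genes with a peak inside or within 10 kb (percent) in each library, for the 10 genes (red, with 95% Wilson intervals), all protein-coding genes (grey) and the 4 related lists. In WT replicate 2 every list lies at 75% or above against 47.1% of all genes, and in miR-187 replicate 2 no list exceeds 12.5%.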

How the data were processed

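ATAC-seq was done on 4 libraries, grouped by their titles into WT and miR-187. Per the labels, the submitters' processing notes name the mm10 build with Bowtie2 2.2.6, SAMtools 1.10, MACS2 2.2.7.1, deepTools 3.3.2 and HOMER 4.11, with no settings. The authors deposited 1 peak list per library, not pooled. Per peak, the deposited lists give the −log10 p, the −log10 q, a score derived from the latter (10-fold, truncated), and the ratio of summit height to background (fold). These depend on depth, so peaks were ranked by −log10 q within a list. The 6, 20, 6 and 0 peaks on scaffolds were left out.

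The members and the related lists were chosen with earlier results of these data known. Genes came from a RefSeq table of GRCm38.p6 (mm10), in which all listed genes matched. A start site was known for 79.9% of genes, and for the rest both boundaries counted. Coordinates are 1-based. The number of reads at a summit and the background were solved from the deposited fold and −log10 p, taking p as the Poisson tail above the pileup, to within 0.001. This gave a solution for 100% of peaks and was tested on simulated data. The lowest background of a list stands for its depth. Absolute read totals are not given in the sources used here.

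For each gene, peak numbers of the groups were compared by exact permutation (2-sided). Counts over the members are described beside the same share of all protein-coding genes, with no test. Wilson intervals (95%) cover counting error only, and genes of 1 library are not replicates. Named genes are all members, the nearest genes to a member's peaks where these differ, up to 5 genes of each related list per pattern (a peak in all lists, WT only, or the reverse), and the 3 genes closest to Fos in rank. Marker genes, with or without a peak, were chosen for naming with their values in view. Alternatives were a −log10 q of at least 5, equal list lengths, other windows (1 kb, 3 kb, gene only), the nearest gene only, start distances of 500 bp and 2 kb, 50% reciprocal overlap, summits within 250 bp, a replicate block and each library left out. Versions were scipy 1.17.1, pandas 2.3.3, numpy 2.4.6, matplotlib 3.10.9 and statsmodels 0.14.6 under Python 3.11.15.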

Additional observations from a re-analysis of the deposited data

How the results depend on the processing

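Of 215 values over the alternatives, 145 moved less than the replicate spread or, for counts of genes or regions, little or not at all. A further 63 moved more and 7 reversed. The tally includes the replicate block and a crossed pairing of the libraries, which cannot move a difference of means. The spread includes that between the 2 miR-187 libraries. The peak difference therefore counted among the 145 although it went from -5 to 0 without miR-187 replicate 2. With the lists cut to 1483 peaks each, the difference was 0.500 for genes with a peak, 0.500 for peaks and 1 for genes with a start-site peak, and 0 genes and 0 regions were WT-only. At a −log10 q of at least 5, 0 genes and 1 region were WT-only. WT-only genes numbered 1 (Ier2) with a 1 kb window, and 1 (Klf2) with 1 region counting summits inside the gene only. A 50 kb window, chosen after seeing the data, gave -18.5 peaks, 1 WT-only gene (Fosb) and 6 WT-only regions. With summits within 250 bp, 2 regions were WT-only. The peak number of Fos reversed to 0.500 with summits inside the gene only, and that of Jund to -1 in the 50 kb window. The cause was not tested.

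Leaving out 1 library gave -8 to -1 genes with a peak, -10 to 0 peaks and -5.50 to -0.500 genes with a start-site peak. WT-only genes ran from 3 to 7, the reverse pattern from 0 to 1, WT-only regions from 3 to 6 and miR-187-only regions from 0 to 4. Leaving out a library only loosens these rules, so none of these counts could fall, and their lower ends show no stability. Without WT replicate 1 or WT replicate 2 there were 6 WT-only regions each, without miR-187 replicate 1 there were 7 WT-only genes and 5 such regions, and without miR-187 replicate 2 there were 4 miR-187-only regions and 1 gene. By gene, Fosl2 ran from -1.50 to 0.500, reversed without WT replicate 2, and Jund from -0.500 to 1.50, reversed without miR-187 replicate 1.

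The replicate block gave the same differences (-4.50 genes, -5 peaks, -3 genes with a start-site peak), since a mean of paired differences equals the difference of means, and its smallest sign-flip p with 2 pairs is 0.500. The correlation of deviations between libraries with the same number was -0.158 (21887 genes). A crossed pairing, chosen after seeing the data, called 0 genes, as did the block. With 2 libraries per group and inferred depths that differ by 5.06 times, a missing peak does not show that a site is closed, and the part of depth was not tested. At Fosb, Egr1 and Ier2 the peaks were missing in miR-187 replicate 1 (depth 1.95) and present in WT replicate 1 (1.70). The same 2 libraries went the other way at Fosl2, Junb and Jund. There WT replicate 1 had 0 peaks and miR-187 replicate 1 had 1, 1 and 2.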

Other observations

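Between 10 and 50 kb from the members, further sites were listed, and this wider window was chosen after the data were seen. Within 50 kb, WT replicates 1 and 2 listed 22 and 36 peaks and miR-187 replicates 1 and 2 listed 19 and 2. The 2 peaks of miR-187 replicate 2 were at chr8:84989972-84990171 (rank 35.8), 11374 bp from Junb and inside Hook2, and at chr8:70682256-70682529 (rank 76.1), 15377 bp from Jund and 3610 bp from Lsm4, its nearest gene. The second site was also in WT replicate 2 and miR-187 replicate 1, with 231 bp shared by all 3 peaks. It was the only site within 50 kb of the 10 genes that both miR-187 libraries listed.

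Distal sites in both WT libraries and miR-187 replicate 1 were found near Fos (chr12:85454936-85456000), Ier2 (chr8:84639260-84639780, inside Cacna1a) and Klf2 (chr8:72295606-72296209). Their peaks shared 418, 266 and 296 bp. Distal sites in both WT lists only were near Fosb (chr7:19332721-19333148, 200 bp shared), Egr1 (chr18:34887621-34887855, 200 bp shared) and Atf3 (chr1:191125947-191126288, 241 bp shared), with Ercc1, Etf1 and Batf3 as their nearest genes. The site 10917 bp from Egr1 in WT replicate 1 was also in miR-187 replicate 1 (chr18:34850153-34850406), and its nearest gene was Reep2. Near Junb, which had no WT peak within 10 kb, WT replicate 2 listed a peak of rank 99.4 at chr8:84990352-84990712, inside Hook2, and miR-187 replicate 1 listed the same site.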
